A study of Mus musculus with 4 samples.

Results

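The 9 genes described here, Mmrn2, Clec14a, Cd93, Robo4, Egfl7, Ecscr, Rasip1, Plvap and Nos3, encode surface, matrix and lumen proteins largely restricted to vascular endothelium. They were taken by symbol, as every probe outside the controls whose array accession maps to 1 of them, which gave 12 of 55681 probes and 9 of 20660 named genes on the array. The RNA came from mouse EB5 embryonic stem cells that report Hoxb6, a trunk homeobox gene, through the fluorescent protein Venus. At day 6 of differentiation on the OP9 stromal line, cells bearing Flk-1 (the product of Kdr, a receptor for VEGF) were sorted into a fraction with and a fraction without Venus fluorescence, here Venus-positive and Venus-negative. Both fractions share the EB5 background, the reporter and the OP9 co-culture, and neither the number of reporter clones nor whether the replicates were separate cultures is stated, so p-values measure no more than the spread between these samples, possibly a technical one. Each fraction was hybridised to 2 single-colour arrays, 4 arrays in all.

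As vessels form, cells of the mesoderm first acquire Flk-1, then endothelial transcription factors, and later the proteins that hold the vessel wall together and open a lumen. Endothelial cells secrete Mmrn2 into the matrix beneath them, where the lectin-like receptors Cd93 and Clec14a bind it. Rasip1 is needed for the lumen to open, and Nos3, the endothelial nitric oxide synthase, later serves vessel tone.

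Of the 9 genes, 8 were measured and all 8 had higher mean signals in the Venus-positive cells, by 1.64-fold to 2.91-fold, where 51.9% of all genes had a positive change. Mmrn2 and Ecscr rose past the threshold, an adjusted p under 0.05 in limma (Benjamini-Hochberg over all 23548 features tested). The other 6 did not pass over all genes, and Clec14a lay near background on every array and was not tested. Of 13926 genes tested, 0.984% were called higher and 1.85% lower by the Venus-positive minus Venus-negative change. At an unadjusted p under 0.05, 7 of the 8 were higher, all but Robo4, against 14.1% of all genes. For 8 of 8 both Venus-positive arrays lay above both Venus-negative arrays, as they did for 32.3% of all genes, while 29.4% of all genes had both below. A log2 change of 1 or more was seen for 4 (Mmrn2, Cd93, Ecscr and Nos3), against 4.14% of all genes. The median log2 change was 1.09 over the 8 measured genes and 0.01 over all genes. These are bulk signals, so that fewer endothelial cells in a fraction and less RNA per cell cannot be told apart.

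All 4 arrays lay on 1 slide with 1 scan, and between 50.7% and 53.0% of the spots outside the controls were well above background. The Venus-negative arrays occupied column 2 of the slide and the Venus-positive arrays column 3, so slide column and fraction cannot be told apart. Slide row went with the replicate number. Hoxb6 itself had a log2 change of 1.01 ± 0.16 (SE, limma adjusted p = 0.0717). Of 8 endothelial markers (Kdr, Cdh5, Pecam1, Tie1, Tek, Emcn, Esam and Icam2), 8 were well above background on all 4 arrays. So were 12 of 13 blood, 8 of 10 stromal and 5 of 7 smooth muscle markers. The same held for 6 of 7 nascent mesoderm and 5 of 6 pluripotent cell markers, so detection alone does not identify the cell type. For 7 of the 8 endothelial markers both Venus-positive arrays lay above both Venus-negative arrays, as for 32.3% of all genes. In limma 2 were called higher and 0 lower. In what follows, signals are Agilent processed signals without scaling between arrays, and log2 changes are Venus-positive minus Venus-negative after each array was centred on its 75th percentile. That percentile was a signal of 396 and 347 for the Venus-negative arrays, and of 429 and 398 for the others.

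**Figure D1:**
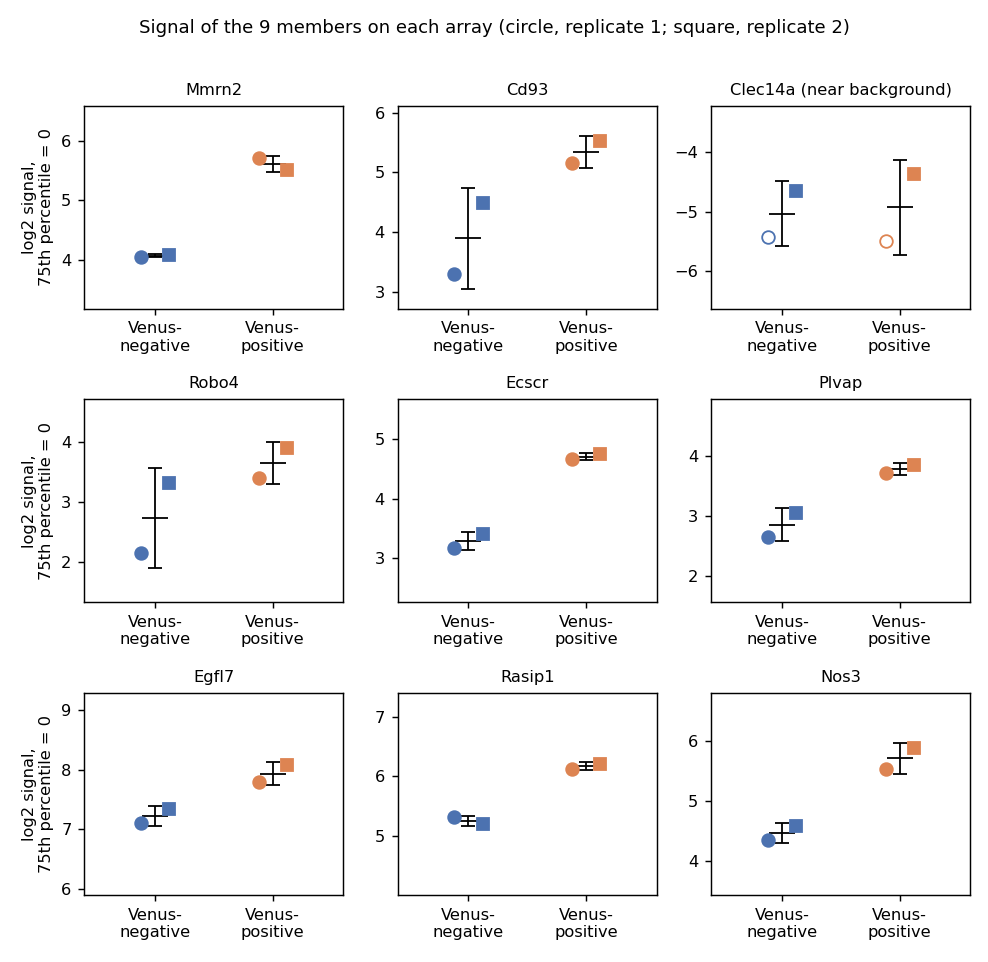
Log2 processed signal, centred on each array's 75th percentile, of the 9 genes on each array (circles, replicate 1; squares, replicate 2; bars, mean and SD, n = 2; open symbols, not well above background; each panel spans the same range of log2 units). For 8 genes both Venus-positive arrays lie above both Venus-negative arrays; the brighter Clec14a probe overlaps between fractions.

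The region before the transcript start is shown for the members held by the RefSeq promoter table (assembly GRCm38.p6), so that letters known from endothelial gene control can be compared between them. The 4 members found there were Clec14a, Robo4, Egfl7 and Rasip1. Each is printed 5′ to 3′ on its own strand, up to the start of the gene, with matches to the ETS core letters CAGGAA or CCGGAA on either strand in capitals. ETS factors such as Erg, Fli1 and Etv2 are well known regulators of endothelial genes.
Egfl7, chr2:26580833-26581082, plus strand: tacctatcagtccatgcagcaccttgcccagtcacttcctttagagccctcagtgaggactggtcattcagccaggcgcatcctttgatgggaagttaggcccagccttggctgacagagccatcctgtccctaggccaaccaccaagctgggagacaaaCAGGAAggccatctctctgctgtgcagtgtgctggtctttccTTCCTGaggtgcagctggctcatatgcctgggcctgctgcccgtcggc
Rasip1, chr7:45627287-45627536, plus strand: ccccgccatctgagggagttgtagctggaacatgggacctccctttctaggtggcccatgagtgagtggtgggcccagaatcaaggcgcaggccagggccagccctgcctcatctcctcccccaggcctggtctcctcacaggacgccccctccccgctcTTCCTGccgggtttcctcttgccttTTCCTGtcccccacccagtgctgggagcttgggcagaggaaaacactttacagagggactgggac
Clec14a, chr12:58269259-58269508, minus strand: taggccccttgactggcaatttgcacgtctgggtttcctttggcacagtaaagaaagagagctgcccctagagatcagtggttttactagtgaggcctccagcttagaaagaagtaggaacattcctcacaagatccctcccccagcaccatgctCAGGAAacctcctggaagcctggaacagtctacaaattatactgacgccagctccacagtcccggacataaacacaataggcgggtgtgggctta
Robo4, chr9:37401722-37401901, plus strand: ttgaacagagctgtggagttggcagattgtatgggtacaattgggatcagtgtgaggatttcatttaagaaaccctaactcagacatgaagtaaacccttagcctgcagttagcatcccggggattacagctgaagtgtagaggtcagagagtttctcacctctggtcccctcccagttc

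In the 250 bases before a transcript start, an ETS core match occurred in 4 of these 4 genes. Egfl7 has 3 listed starts and so more chances of a match. Over all 32851 promoter windows of that length, 35.1% held at least 1 of these letters, 25.7% CAGGAA and 12% CCGGAA. Egfl7 and Rasip1 each had 2 matches before their first start, Clec14a had 1, and the single Robo4 match lay between bases -50 and -45 of a start inside the gene and is therefore not printed. All were of the form CAGGAA. Of the other letters searched on both strands, CCACCC (bound by Klf factors) was found in Rasip1 and before an internal Egfl7 start, against 28.1% of all windows, while the GATA letters AGATAA were found in none of the 6 windows of these genes and in 9.99% of all. The Sox letters AACAAT and the TATA box TATAAA were likewise found in none of the 6, and in 9.42% and 12.4% of all windows. A match says only that these letters are present.

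Mmrn2, multimerin 2, is a glycoprotein of the endothelial basement matrix. Its signal was 6577 and 5915 in the Venus-negative cells and 22432 and 18229 in the Venus-positive cells. The arrays of each fraction lay close together and far from the other fraction. Mmrn2 rose 2.91-fold (log2 change 1.54 ± 0.12 SE, 95% interval 1.21 to 1.87, limma adjusted p = 0.0353). Ranked by log2 change it was number 146 of the 13926 genes tested.

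Cd93, a transmembrane receptor with a C-type lectin domain that binds Mmrn2, is also found on blood progenitors. Its signal was 3898 and 7800 in the Venus-negative and 15279 and 18376 in the Venus-positive cells. The fractions did not overlap, but the 2 Venus-negative arrays differed 2.28-fold after centring. The log2 change of 1.45 ± 0.46 SE was nearly as large as that of Mmrn2, yet its 95% interval ran from 0.14 to 2.76 and it did not pass (limma adjusted p = 0.185). It was 2.04 without Venus-negative replicate 2 and 0.85 without Venus-negative replicate 1.

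Clec14a, the other lectin-like receptor for Mmrn2, was represented by 2 probes of the same accession. The brighter probe had signals of 9.25 and 13.8 in the Venus-negative and 9.51 and 19.4 in the Venus-positive cells, and was well above background on replicate 2 of each fraction. The other probe read 3.23, 2.55, 2.84 and 2.41 in the same order and was well above background on none of the 4 arrays. After centring the brighter probe overlapped between fractions. The dimmer probe, below that limit throughout, stood at -6.94 and -7.09 in the Venus-negative and -7.24 and -7.37 in the Venus-positive cells. Neither probe met the criterion for testing, which asks for both arrays of a fraction well above background.

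The relatives of these proteins did not move as a group. Of 7 lectin, multimerin and Egfl7 relatives tested, 0 were called higher in limma (1 at an unadjusted p under 0.05) and 1 lower, with a median log2 change of 0.15. The gene that fell was Emilin2, a matrix glycoprotein of the same family as Mmrn2, which was 5.24-fold lower in the Venus-positive cells (log2 change -2.39 ± 0.10 SE, limma adjusted p = 0.0279). Its centred log2 signals were 0.99 and 1.02 in the Venus-negative and -1.36 and -1.41 in the Venus-positive cells. Thus Mmrn2 and its relative Emilin2 passed the test in opposite directions.

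**Figure D2:**
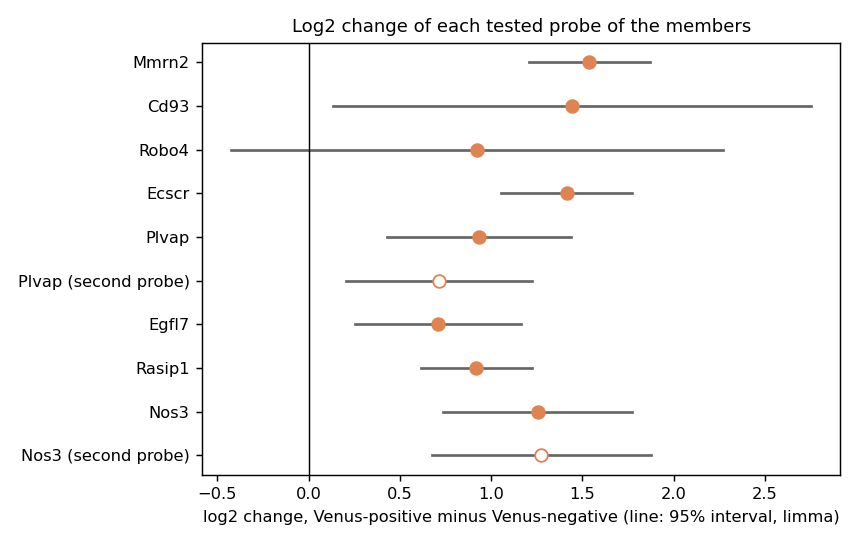
Log2 change (Venus-positive minus Venus-negative) of every tested probe of the 8 measured genes, with limma's 95% interval; open circles are second probes of Plvap and Nos3, fitted with every probe as a feature of its own. The interval of Robo4 alone includes 0.

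Robo4, the endothelial member of the Roundabout receptors, stabilises vessels through its partner Unc5b. Its signal was 1746 and 3469 in the Venus-negative and 4537 and 5970 in the Venus-positive cells. After centring the higher Venus-negative array (3.32) came within 0.1 log2 units of the lower Venus-positive array (3.40). The log2 change of 0.92 ± 0.47 SE had an interval of -0.42 to 2.27 and did not pass (limma adjusted p = 0.332). The value depended on single arrays: leaving out Venus-negative replicate 1 gave 0.33 and leaving out its replicate 2 gave 1.51, and the Venus-positive arrays, left out in turn, gave 1.17 and 0.67.

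Of 7 Robo and Slit relatives and partners, 1 fell and 0 were called higher in limma (1 higher and 2 lower at an unadjusted p under 0.05), with a median log2 change of 0.26. Slit3, a secreted Robo ligand, was 4.91-fold lower (log2 change -2.30 ± 0.25 SE, limma adjusted p = 0.0490). Unc5b, a netrin receptor and the partner of Robo4, was named after its values were seen. Its centred log2 signals were 4.16 and 3.89 in the Venus-negative against 3.21 and 2.75 in the Venus-positive cells, a change of -1.05 ± 0.22 SE that did not pass (limma adjusted p = 0.107).

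Cd93 and Robo4 shared their spread between the Venus-negative arrays. From replicate 1 to replicate 2 of that fraction their centred log2 signals differed by 1.19 and 1.18, against -0.12 to 0.39 for the other 6 measured genes. In each fraction 7 of the 8 measured genes were higher on replicate 2. The median differences were 0.23 (Venus-negative) and 0.21 (Venus-positive), against 0.00 over all genes. Blood cell markers differed between the same arrays in the same direction: 11 of 12 tested were higher on replicate 2, with a median difference of 0.91, against 0.00 over all genes. Their summed level, in multiples of each array's 75th percentile, was 65.8 and 133 on the Venus-negative arrays, against 63.3 and 72.3. Between fractions the blood markers were mixed: of the 12 tested, 4 were higher and 8 lower in the Venus-positive cells. Their median change was -0.22, and 0 passed in limma (0 higher and 1 lower at an unadjusted p under 0.05). The 2 largest changes were those of Hbb-bh1, an embryonic globin, and Klf1, an erythroid transcription factor. They were -0.72 ± 0.46 and -0.85 ± 0.68 SE on the log2 scale and did not pass (limma adjusted p = 0.419 and 0.512). Of the 13 markers, 12 were well above background on all 4 arrays, and Ptprc, the pan-leukocyte antigen CD45, on none. Blood markers were not the only genes higher on replicate 2 of the Venus-negative fraction. Of 48 other endothelial genes 31 were higher there, with a median difference of 0.16, and so were all 8 caveola genes, with 0.31. The endothelial genes Cyyr1 (1.86) and Emcn (1.03) and the caveola gene Cav1 (1.28) differed about as much as Cd93 and Robo4, or more. They were named after their values were seen. The part of blood cells in the Cd93 and Robo4 values was not tested.

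**Figure D3:**
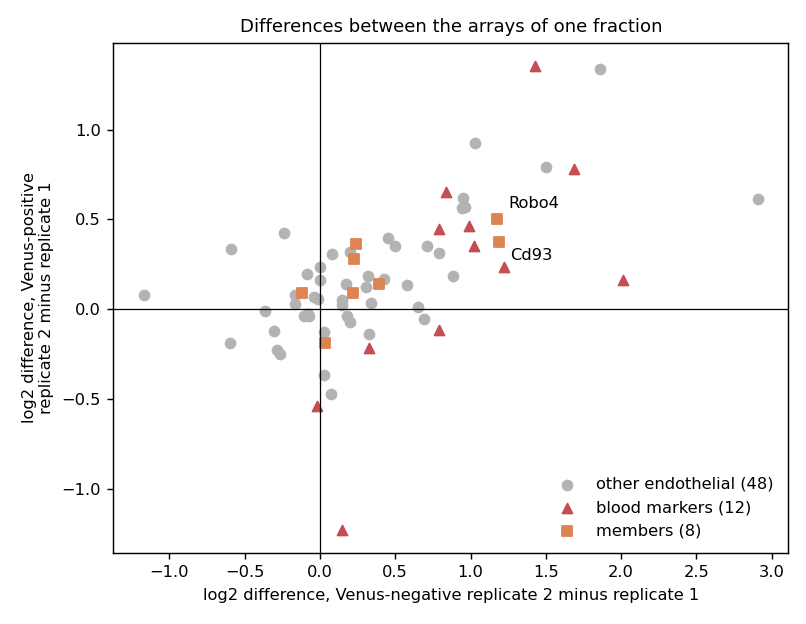
Log2 difference between replicate 2 and replicate 1 in the Venus-negative (horizontal) and Venus-positive fraction (vertical) for the 8 measured genes (squares), 48 other endothelial genes (circles) and 12 blood markers (triangles). Cd93 and Robo4 lie near 1.2 on the horizontal axis near several blood markers and endothelial circles, apart from the other 6 squares.

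Ecscr, a small surface glycoprotein of endothelial cells that influences their migration and VEGF response, had signals of 3585 and 3665 in the Venus-negative and 10843 and 10711 in the Venus-positive cells. These signals, not scaled between arrays, were nearly equal within each fraction. After centring, the log2 signals were 3.18 and 3.40 in the Venus-negative and 4.66 and 4.75 in the Venus-positive cells. Ecscr rose 2.67-fold (log2 change 1.41 ± 0.13 SE, interval 1.05 to 1.78, limma adjusted p = 0.0395). Its change was 1.48 within slide row 1 and 1.35 within row 2.

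Plvap forms the diaphragms that span endothelial fenestrae and caveolae. Its brighter probe read 2490 and 2871 in the Venus-negative and 5635 and 5762 in the Venus-positive cells. Both Venus-positive arrays were high and the fractions did not overlap. The 1.91-fold difference (log2 change 0.93 ± 0.18 SE, interval 0.43 to 1.44) did not pass (limma adjusted p = 0.0961). The dimmer probe, at 404 and 465 against 774 and 812, gave 0.71 ± 0.18 SE.

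Among 8 caveola genes 0 passed in limma (1 higher and 1 lower at an unadjusted p under 0.05), and the median was 0.25. Ehd2, an ATPase at the neck of caveolae, had the largest change at 1.06 ± 0.12 SE (limma adjusted p = 0.0512), followed by Cav2, a caveolin, at 0.71 ± 0.31 SE (0.280).

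Egfl7 is a secreted matrix protein that guides vessel tube formation. Its signal was 54629 and 56085 in the Venus-negative and 95222 and 107292 in the Venus-positive cells. It was bright on every array, and its fold difference was the smallest of the 8, at 1.64 (log2 change 0.71 ± 0.16 SE, interval 0.26 to 1.17, limma adjusted p = 0.119). The gene also carries the endothelial microRNA miR-126a, which these probes do not measure; its 3p strand, with the seed (bases 2 to 8) in capitals, is given because it is made from the same transcript.
mmu-miR-126a-3p, chr2:26591402-26591423, plus strand (RefSeq, GRCm38.p6): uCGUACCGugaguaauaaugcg

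Rasip1 binds small GTPases of the Ras family and acts with its partner Arhgap29 as the vascular lumen opens. Its signal was 15695 and 12692 in the Venus-negative and 29960 and 29560 in the Venus-positive cells. Its spread within the fractions was small, with SDs of 0.08 and 0.06 on the log2 scale (n = 2). The 1.89-fold difference (log2 change 0.92 ± 0.11 SE, interval 0.61 to 1.22) just missed the threshold (limma adjusted p = 0.0529). With a signal-dependent variance prior it passed (adjusted p = 0.0103).

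Arhgap29 was the gene outside the members whose centred profile over the 4 arrays lay nearest to their mean profile, at a Euclidean distance of 0.079 log2 units. Its centred log2 signals were -0.18 and 0.28 in the Venus-negative and 1.14 and 1.24 in the Venus-positive cells, a change of 1.13 ± 0.19 SE that did not pass (limma adjusted p = 0.0826). Next came Cpeb2, an RNA-binding protein (0.0825), Net1, a guanine nucleotide exchange factor (0.0863), Tgfbr2, a TGF-beta receptor (0.0876), and Tfpi, an inhibitor of coagulation (0.101). Their log2 changes ran from 1.06 to 1.21 and none passed (limma adjusted p from 0.0688 to 0.103); with normexp that of Cpeb2 was 0.39. With only 4 arrays such a likeness is a description.

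Nos3 was measured by 2 probes. The brighter read 8022 and 8298 in the Venus-negative and 19910 and 23724 in the Venus-positive cells, a 2.39-fold difference (log2 change 1.26 ± 0.18 SE, interval 0.74 to 1.77, limma adjusted p = 0.0672). The fractions were well separated. The other probe gave 1.28 ± 0.21 SE and was printed at 10 spots on every array, which shows the precision within an array. The SD over its 10 spots was 0.03 and 0.05 log2 units for the Venus-negative samples, and 0.05 and 0.06 for the others, around means of 2.28, 2.43, 3.38 and 3.88. The 2 Venus-positive arrays thus differed by more than the spots within them.

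Of 22 other nitric oxide pathway genes, 17 were tested and 0 passed in limma (4 higher and 1 lower at an unadjusted p under 0.05), with a median of 0.19. Prkg1, the kinase activated by cyclic GMP, had the largest change at 1.47 ± 0.16 SE (limma adjusted p = 0.0505). Klf2, a transcription factor that raises Nos3 in endothelium under flow, stood at 0.95 ± 0.23 SE (0.126). Nos1, the neuronal synthase, was among the 5 genes not tested.

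Other endothelial genes showed a similar shift. Of 48 tested, 11 rose and 0 fell past the threshold, against 0.984% and 1.85% of all genes. At an unadjusted limma p under 0.05, 34 were higher and 1 lower, against 14.1% and 11.9% of all genes. Their median log2 change was 1.04 beside 1.09 for the 8 measured members. The 11 became 25 with normexp, 29 with a signal-dependent variance prior and 0 with dim probes kept. The largest called changes were those of Stab1, a scavenger receptor (1.86 ± 0.15 SE), Cd34, a sialomucin of endothelium and progenitors (1.63 ± 0.16), Sox18, a vascular transcription factor (1.53 ± 0.11), and Tek, the angiopoietin receptor (1.53 ± 0.17). Kdr, on which both fractions were sorted, had 0.44 ± 0.11 SE (limma adjusted p = 0.138). The 1 gene lower at the unadjusted p was Etv2, an ETS factor, which was 2.83-fold lower in the Venus-positive cells (limma adjusted p = 0.0851). Erg and Fli1, the ETS factors named with it above, had log2 changes of 1.46 and 1.00 and did not pass (limma adjusted p = 0.0502 and 0.0778). The values of these ETS factors were seen before they were chosen for mention.

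**Figure D4:**
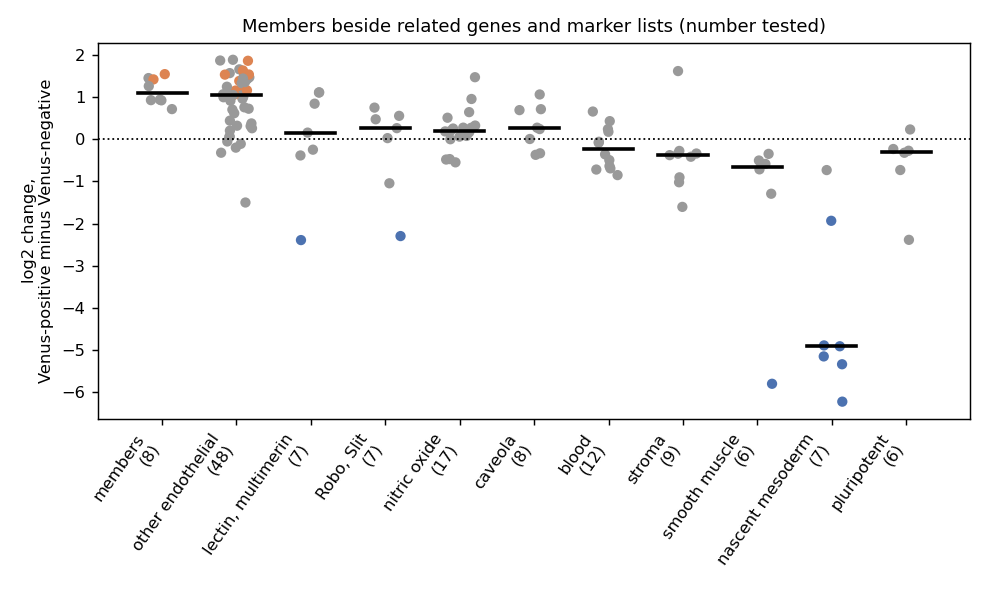
Log2 change of each tested gene in 11 lists (points; orange, called higher; blue, called lower; grey, not called; black bars, medians; dotted line, median of all genes). The members and the other endothelial genes have medians of 1.09 and 1.04, and the nascent mesoderm markers a median of -4.91.

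Markers of other cells also differed between the fractions. The 7 nascent mesoderm markers had a median log2 change of -4.91, and 6 were called lower, with Mesp1 (-6.22), Gsc (-5.33), Mixl1 (-5.15) and Eomes (-4.91), all regulators of mesoderm formation, the largest; in the Venus-positive fraction Mesp1 exceeded background on 1 of its 2 arrays. With normexp background correction, Mesp1, Gsc and Mixl1 had smaller changes of -3.78, -3.63 and -3.58, and Eomes -4.37, all still called lower. The summed level of all 7 nascent mesoderm markers was 43.8 and 37.6 in the Venus-negative fraction, against 14.2 and 10.4. It includes T, the marker not called lower (-0.73 ± 0.25 SE, limma adjusted p = 0.202), named after its values were seen. In the Venus-positive cells T was the brightest of the 7, with centred log2 signals of 3.74 and 3.24. The summed level of smooth muscle and pericyte markers was 62.6 and 38.4 against 46.9 and 27.5, with 1 of 6 called lower. This was Rgs5, a pericyte signalling regulator, without a Venus-positive array well above background. Set against the lowest signal well above background it was 16.6-fold lower. With normexp its log2 change was -1.78, still called lower. Myh11 was well above background in neither fraction. For stromal and fibroblast markers the summed level was 72.1 and 62.0 against 59.7 and 39.4. Of 9 tested, 0 passed in limma and 2 were lower at an unadjusted p under 0.05. Named by the rule were Thy1 (-1.60 ± 0.39 SE, limma adjusted p = 0.128) and Postn (limma adjusted p = 0.251). Postn was clear of background only in the Venus-positive cells, and 2.14-fold higher against the lowest signal well above background. With normexp the log2 change of Postn was 0.12. Pluripotent cell markers summed to 7.37 and 4.47 against 3.34 and 2.76; of 6 tested, 0 passed in limma and 1, Pou5f1, was lower at an unadjusted p under 0.05 (-2.39 ± 0.34 SE, limma adjusted p = 0.0663), followed by Esrrb (-0.73 ± 0.56, 0.490). The part of these cells in the members' values was not tested.

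The number of calls varied with the processing. A signal-dependent variance prior called 6 members higher, all but Cd93 and Robo4, and 597 genes higher, and normexp background correction called 5 members and 491 genes. Leaving out 1 array leaves a fraction of 1 array, assumed to vary like the other fraction, and 1 residual degree of freedom. In limma these fits called 0 members and 0 genes, with 5 to 8 members and 1105 to 1514 genes higher at an unadjusted p under 0.05, and the lowest adjusted p of a member was 0.128 to 0.161; so small a design says nothing about the stability of the calls.

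**Figure D5:**
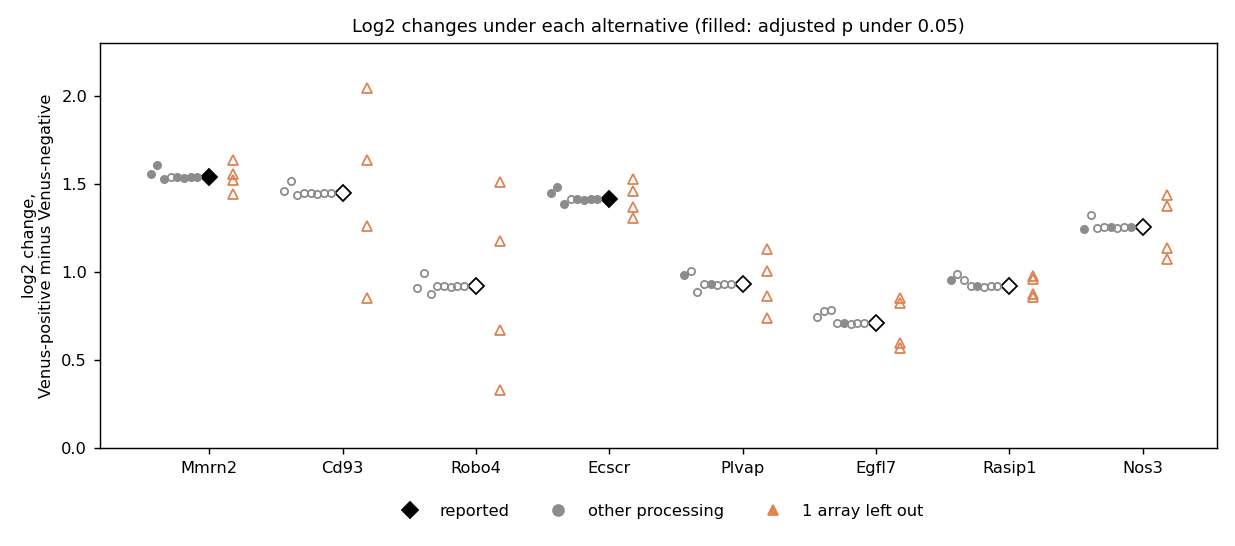
Log2 change of the 8 measured genes as reported (diamonds), under 8 other processing settings (circles, side by side) and with 1 array left out (triangles); filled symbols passed an adjusted p under 0.05. Those of Cd93 and Robo4 spread most when 1 array is left out, from 0.85 to 2.04 and from 0.33 to 1.51.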

How the data were processed

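Per the file headers, the authors' scanner tables come from Agilent Feature Extraction 10.10.1.1 and give each spot's processed intensity, with background subtracted, spatial trends removed and no scaling across arrays. In the deposited table of values, each array's intensity is multiplied by 1 number (2.15 and 2.44 for the Venus-negative, 1.98 and 2.11 for the Venus-positive arrays) of unstated origin; the column medians were 41.0, 42.3, 41.0 and 38.1 in that order.

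Control spots and outlier spots were left out. Each array's log2 intensities were set relative to their 75th percentile, spots of a probe were averaged, and 27899 probes were kept that exceeded background clearly on both arrays of a fraction. Accessions without version were matched to symbols through a RefSeq table of GRCm38.p6 (21465 of 37881 matched). Each gene took the values of its brightest probe by mean (13926 genes and 9622 unnamed probes). The test was limma 3.58.1 (lmFit and eBayes, R 4.3.3) with 2 residual and 1.8 prior degrees of freedom, whose moderated SE is printed. The fit was also run on simulated data with independent arrays, only to check that set log2 changes were recovered on average. That run does not bear on the calls reported here. For a gene dim in 1 fraction the fold is taken against the higher of its own signal and the lowest signal well above background. Such a fold can be smaller under another background correction. Precision is limited by there being 2 arrays a fraction.

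The members and gene lists were chosen with earlier results of these data known. The text names all members, Kdr, Hoxb6, up to 4 called genes of each list or otherwise its 2 largest changes, and the 5 genes nearest to the members in profile. Normexp was run on median signals, since the tables used here hold no mean spot signal. The result of 1 gene list is not reported here.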

Additional observations from a re-analysis of the deposited data

How the results depend on the processing

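The reported fit called 137 genes higher and 257 lower, and 2 members higher and 0 lower. The numbers higher and lower were 491 and 538 with normexp, 597 and 650 with a signal-dependent variance prior, 259 and 296 with arrays centred on the median, and 0 and 0 with dim probes kept (1736 and 1783 at an unadjusted p under 0.05 in limma). Other endothelial genes higher were 11 as reported and 16 with the median. Members higher were 5 with normexp, 6 with the variance prior and 0 with dim probes kept (7 unadjusted). Without 1 array, genes higher, genes lower and members higher all ranged from 0 to 0. Quantile scaling, the authors' value table and every probe as a feature left all 4 counts within 1.5 times the reported ones. With the replicate number as a block, 290 genes were higher and 421 lower, and 3 members were higher, Nos3 joining Mmrn2 and Ecscr (adjusted p = 0.0443); of the other endothelial genes 18 were higher, but Cd34 missed the threshold (adjusted p = 0.0526); the block rests on a shared number and slide row only, and deviations of same-numbered arrays correlated at 0.41 over features. Over the 12 alternatives by 8 members, 78 log2 changes kept their side of the threshold, 8 passed it newly, 10 lost it and 0 changed sign, which leaving out an array could not do as the fractions do not overlap. The cause of these differences was not tested. Low signal leaves Clec14a without a test.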

Other observations

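Some lists differed between the arrays of one fraction. All 8 caveola genes were higher on replicate 2 than on replicate 1 in both fractions, with median log2 differences of 0.31 (Venus-negative) and 0.11 (Venus-positive), against 0.00 over all genes in each. Of 9 stromal and fibroblast markers, 2 were higher on replicate 2 in the Venus-negative and 1 in the Venus-positive fraction, with medians of -0.28 and -0.40. The 6 pluripotent cell markers had medians of -0.96 and -0.62, with 1 and 2 higher on replicate 2. Among the relatives of Mmrn2, Mmrn1, the multimerin of platelets and endothelium, differed by 2.10 between the Venus-negative arrays; it was named after its values were seen.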
